A study of Mus musculus with 23 samples.

Results

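MHC class I molecules were followed through 10 genes of the counts table, of 27207 genes in all. The genes encode the heavy chains H2-D1 and H2-K1, their light chain B2m, the peptide transporter Tap1 and Tap2, the loading factor Tapbp, the immunoproteasome subunits Psmb8, Psmb9 and Psmb10, and the transactivator Nlrc5. They were picked by symbol, and they were chosen by their counts scaled to library size (CPM, counts per 1e6 counts) over the 6 groups, which were known beforehand. Their levels are therefore given as a description and carry no test. All 10 genes had a row in the table, and 6 of them (H2-D1, H2-K1, B2m, Tap2, Tapbp and Psmb10) had enough counts to enter the fit across all genes.

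The 23 libraries came from mouse pancreatic tumor cells. The KC line carried Ptf1a Cre/+, with Cre driven from a gene of the pancreatic lineage. It was sampled as 2D cells (n = 6), as organoids in Matrigel at day 13 (n = 3), in floating collagen at day 7 (n = 3), and in floating collagen at day 13 in batch 1 (n = 5) and in batch 2 (n = 3). The KPC line carried Pdx1 Cre/+, likewise driven from a gene of the pancreatic lineage, and was sampled as collagen organoids at day 13 in batch 2 (n = 3). Each genotype was 1 line from 1 mouse, so that the genotype and the line, with its Cre driver and its H2 alleles, cannot be told apart. The study describes the Matrigel, day 7 and day 13 libraries of batch 1 as separate experiments. For the 2D cells and batch 2 this is not given in the sources used here, and p-values there measure only the spread between these libraries, which may be technical.

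MHC class I presents peptides from inside the cell to CD8 T cells. The proteasome cuts the peptides, TAP carries them into the endoplasmic reticulum, tapasin (Tapbp) and calreticulin help to load them, and a heavy chain reaches the surface only when it is bound to B2m. Interferon gamma raises most of these genes, through Irf1 at interferon response elements and through Nlrc5 at a promoter module of X and Y boxes, and swaps the constitutive proteasome subunits for the immunoproteasome subunits. Loss of class I from the surface is a known way in which pancreatic tumor cells evade T cells.

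Libraries held 1221451 to 2471058 counts. The counts are unique 3′ ends and do not grow with the length of a gene, but genes differ in how well their ends are captured, so that levels are compared between libraries and not between genes. CPM values are scaled with TMM factors, which correct for the make-up of a library. In the 2D cells, libraries 1 to 3 stood apart from libraries 4 to 6. The distance between libraries over the 500 most variable genes was 31.7 to 36.4 between these sets and 10.6 to 16.6 within them, so that the main results on 2D cells are also given without either set. Of the 8 epithelial markers, the keratins Krt7, Krt8, Krt18 and Krt19 lay at 930.0 CPM or more in every library and Cdh1 at 109 to 313 CPM. Epcam ran from 4.65 to 191 CPM and Cldn7 from 0.49 to 231 CPM, and Cldn4 was at 0 in 16 libraries. Of the 7 haematopoietic markers with a row, Cd68 reached 36.2 CPM, while Ptprc, Lyz2, Itgam, Cd79a, Csf1r and Fcer1g had at most 3 counts in any library. The fibroblast markers summed to 28.5 to 133 CPM, led by Col1a2 (19.5 to 97.7 CPM) and Dcn (4.18 to 23.7 CPM), with Thy1 at 0 counts in all 23 libraries. The endothelial markers summed to 3.15 to 29.1 CPM, mostly Egfl7, with Kdr and Emcn at 0 throughout.

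Of the 10 genes, 7 lay on chromosome 17 within 1.352 Mb of the H2 region (GRCm38, annotation GENCODE M21). H2-K1 lay at chr17:33996017-34000347 on the minus strand and H2-D1 at chr17:35262730-35267499 on the plus strand. Psmb9 (chr17:34181987-34187764, minus), Tap1 (chr17:34187553-34197225, plus), Psmb8 (chr17:34197721-34201454, plus) and Tap2 (chr17:34203527-34216321, plus) filled 34.3 kb between them. Tapbp was at chr17:33915899-33929292, B2m at chr2:122147686-122153083, Psmb10 at chr8:105935735-105938444 and Nlrc5 at chr8:94434356-94527272. Psmb9 and Tap1 overlapped by 212 bases at their 5′ ends, on opposite strands and away from the counted 3′ ends. The whole of B2m lay inside Patl2 on the opposite strand, and the 3′ ends of Psmb8 and Psmb10 were covered by antisense genes, of which Gm16156, opposite Psmb10, had 2 counts over all libraries. Whether the counting used the strand is not given in the sources used here. The heavy chains resemble each other, and 9.6% of the 50-base words in the last 500 bases of H2-K1 transcripts also occur in transcripts of other genes, as do 8.9% of those of H2-D1. H2-T23 was among the genes that share words with H2-K1. Counts of the heavy chains are uncertain for this reason, but the share of words does not say by how much. Tapbp shared 4.8% of its words, with Zbtb22, and Tap1 shared 2.8%, with Tap2. B2m, Psmb8, Psmb9, Psmb10, Tap2 and Nlrc5 had no such word in the last 500 bases of their own transcripts.

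The promoters of H2-K1 and B2m, and only short stretches of that of H2-D1, are shown because these 3 genes had the most counts of the members. All 3 held an X2 core, a CCAAT box and an interferon response core, which was GAAANNGAA in B2m and GAANNGAAA in the heavy chains. The kappa B core in the spelling GGGATTCC was in the heavy chains and not in B2m. Other spellings of a kappa B site were not searched. RefSeq promoter windows (GRCm38.p6) were found for 8 of the 10 genes. In the sequences below, which run from 190 to 11 bases before the RefSeq start (for H2-K1, the upstream of its 2 starts), capitals mark the kappa B core GGGATTCC, the interferon response core GAAANNGAA or its other form GAANNGAAA, the X2 core TGACG and the CCAAT box, each on either strand.
H2-K1 (chr17:34000358-34000537, minus): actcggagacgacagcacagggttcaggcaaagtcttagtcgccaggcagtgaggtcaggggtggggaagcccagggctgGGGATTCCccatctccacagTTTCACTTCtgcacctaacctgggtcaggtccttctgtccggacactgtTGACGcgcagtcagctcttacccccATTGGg
B2m (chr2:122147497-122147676, plus): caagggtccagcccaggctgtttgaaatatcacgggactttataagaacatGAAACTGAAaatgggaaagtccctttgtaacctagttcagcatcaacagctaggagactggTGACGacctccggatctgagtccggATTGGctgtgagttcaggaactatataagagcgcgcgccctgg

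The kappa B core was in 1.06% of all 32851 windows of 300 bases, GAAANNGAA in 8.56%, GAANNGAAA in 7.52%, TGACG in 20.8% and CCAAT in 37.4%. The form GAANNGAAA was searched after the H2 promoters had been seen. The stretch from the kappa B core to the interferon response core is shown for both heavy chains because 29 of its 30 bases were identical.
H2-K1 (chr17:34000429-34000458, minus): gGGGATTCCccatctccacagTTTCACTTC
H2-D1 (chr17:35262923-35262952, plus): gGGGATTCCccatctcctcagTTTCACTTC

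The stretch from TGACG to the inverted CCAAT box is shown because its spacing was the same, 20 bases, in H2-K1, H2-D1 and B2m. Of its 30 bases, 23 were identical between the heavy chains and 12 between H2-D1 and B2m.
H2-K1 (chr17:34000359-34000388, minus): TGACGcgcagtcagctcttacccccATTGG
H2-D1 (chr17:35262993-35263022, plus): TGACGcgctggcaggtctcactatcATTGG
B2m (chr2:122147609-122147638, plus): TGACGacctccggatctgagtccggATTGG

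This spaced pair was noticed in these promoters and then searched in the whole table. It was in 31 windows, 0.0944% of all. Among these was H2-M3, a class I-like gene, but most of the genes had no class I heavy chain symbol, such as Calu, Nasp and Per1. None of the windows of Tap1, Tapbp, Psmb8, Psmb9 and Psmb10 held the pair. The GAS motif TTCNNNGAA was in 8.30% of all windows and in 4.94% of their stretches from 190 to 11 bases before the start. It lay in that stretch of Psmb8 and in none of those of the other genes matched. A match is a description of these letters and does not show a factor at the site.

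H2-D1, a classical heavy chain, was lowest in KPC and in collagen at day 7. Its level was 321, 318 and 325 CPM in the KPC libraries, against 876, 798 and 788 CPM in the KC libraries of the same batch and day. At day 7 it was 422, 395 and 430.1 CPM, against 923, 880.4, 906, 893 and 978 CPM at day 13 in batch 1. The 3 KPC libraries lay below all 20 KC libraries, and the 3 day 7 libraries lay below every other KC library with TMM scaling. Matrigel libraries held 727, 793 and 814 CPM, and the 6 2D libraries ran from 577 through a median of 622 to 643 CPM. By library total alone, 2D libraries 1 to 3 held 423 to 481 CPM and libraries 4 to 6 held 643 to 667 CPM, so that the former overlapped with day 7 at 413 to 435 CPM. The order of the groups was collagen day 13 of batch 1, collagen day 13 of batch 2, Matrigel, 2D, collagen day 7 and KPC. Only batch 2 and Matrigel, among neighbours in this order, overlapped with TMM scaling.

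H2-K1, the other classical heavy chain, did not follow the same order. It was lowest at day 7, with 93.2, 103 and 104 CPM, and highest in KC of batch 2, with 443, 443 and 358 CPM. Neither of these groups overlapped with any other. The 4 groups between them all overlapped with their neighbours, with 235, 226, 208, 301 and 306 CPM in collagen day 13 of batch 1, 216, 222 and 242 CPM in Matrigel, and 185, 219.7 and 233 CPM in KPC. In 2D cells H2-K1 ran from 186 to 258 CPM with its libraries 1 to 3 at 186 to 217 CPM and its libraries 4 to 6 at 222 to 258 CPM.

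B2m, the light chain that every class I heavy chain needs, varied least of these 3 genes. Its highest library was 2.74 times its lowest, against 3.08 times for H2-D1 and 4.76 times for H2-K1. Only the day 7 libraries stood apart, at 291, 284 and 220.4 CPM. In the other groups B2m ranged from 345 to 605 CPM, and each group overlapped with the next in order. KPC libraries held 345, 397 and 449.8 CPM, of which the highest lay within the 446 to 488 CPM of KC in batch 2. In 2D cells B2m was at 561 to 605 CPM in libraries 1 to 3 and at 482 to 509 CPM in libraries 4 to 6. This order turned when counts were divided by the library total alone, to 430.0 to 461 and 496 to 533 CPM.

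**Figure D1:**
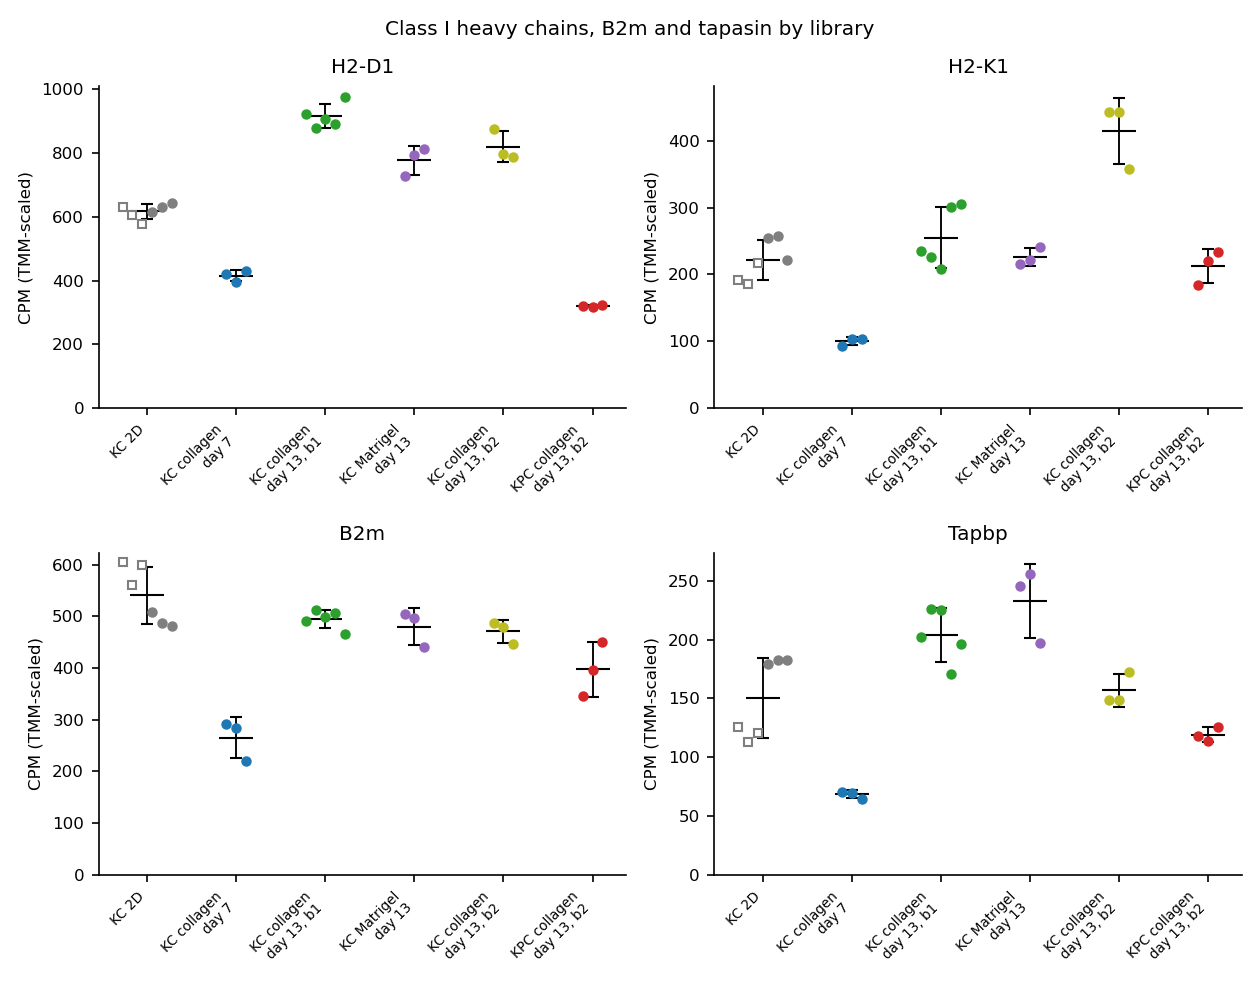
Level of H2-D1, H2-K1, B2m and Tapbp in each of the 23 libraries, in TMM-scaled CPM on linear axes from 0, by group (b1 and b2 are batch 1 and batch 2). Points are libraries, open squares are 2D libraries 1 to 3, and bars are the mean ± SD. KPC is lowest for H2-D1 (318 to 325 CPM), while collagen day 7 is lowest for H2-K1, B2m and Tapbp.

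The balance of the heavy chains does not depend on how libraries are scaled, since both are read in the same library. H2-K1 made up 19.4% ± 1.33 (SD, n = 3) of the H2-K1 and H2-D1 counts at day 7, 21.7% ± 2.72 (n = 5) at day 13 of batch 1, 22.5% ± 0.613 (n = 3) in Matrigel and 26.4% ± 2.63 (n = 6) in 2D cells. In batch 2 its share was 33.5% ± 2.22 (n = 3) in KC and 39.7% ± 2.84 (n = 3) in KPC. The 6 libraries of batch 2 all lay at or above 31.2%, whereas the 17 libraries of batch 1 reached at most 29.3%. The KC line was the same in both batches, so that the share moved with the batch within 1 line, and KPC at 36.5 to 41.8% did not overlap with KC at 31.2 to 35.7%.

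Tap2, a chain of the transporter that moves peptides into the endoplasmic reticulum, had the widest span of fold changes among the 6 genes in the fit. Matrigel libraries held 49, 52 and 33 counts, or 19.3, 22.7 and 19.2 CPM. Collagen libraries of day 13 held 19, 14, 17, 15 and 18 counts in batch 1 and 14, 9 and 14 counts in batch 2, or 6.28 to 9.46 CPM. At day 7 only 1, 3 and 2 counts were found, and in KPC 0, 3 and 1. Day 7 and KPC overlapped with each other and with no other group, and Matrigel lay above every other library. The 2D libraries held 10 to 39 counts, or 9.86 to 18.7 CPM with a median of 13.6 CPM.

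Tap1, its partner, was near the limit of detection, with 109 counts over all 23 libraries and at most 12 in any of them. Pooled over libraries, it was at 2.96 CPM at day 13 of batch 1 and at 1.15 CPM at day 7, a ratio of 2.58 with an exact 95% counting interval of 1.16 to 6.49. KPC held 2 counts in 3 libraries and KC of batch 2 held 6, a ratio of KC to KPC of 3.46 with an interval of 0.619 to 35.1, so that no difference was detectable at this depth. These intervals cover counting error only.

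Tapbp, which holds TAP and the empty heavy chain together, lay between 64.4 and 256 CPM. Its 3 day 7 libraries were lowest, at 70.6, 69.7 and 64.4 CPM, and its Matrigel libraries were highest by median, at 246, 256 and 197 CPM. Day 13 libraries held 202, 226, 225, 171 and 196 CPM in batch 1 and 149, 148 and 173 CPM in batch 2. KPC libraries held 118, 114 and 126 CPM and lay below all 3 KC libraries of batch 2. Within the 2D cells, libraries 1 to 3 (112 to 126 CPM) lay below libraries 4 to 6 (179 to 183 CPM), and this was also so by library total (86.3 to 95.8 against 187 to 193 CPM).

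Psmb9, an immunoproteasome subunit encoded beside Tap1, had 0 counts in all 3 day 7 libraries and in all 3 KPC libraries. Matrigel libraries held 14, 10 and 11 counts, day 13 libraries 6, 4, 3, 2 and 3 in batch 1 and 4, 4 and 2 in batch 2, and 2D libraries 1 to 5. Matrigel, at 4.36 to 6.41 CPM, lay above every collagen library and overlapped with the 2D libraries, which reached 4.93 CPM. With 3 counts put in place of 0 over a group, Psmb9 was 3.99-fold higher at day 13 than at day 7. In the same way it was 3.85-fold higher in KC than in KPC of batch 2. These values take the counts of the higher group as exact, so that the difference could be smaller. Matrigel exceeded collagen at day 13 by 3.11 times, with a counting interval of 1.71 to 5.83.

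Psmb8, the neighbouring immunoproteasome gene, was counted most in 2D cells. It had 36 counts in the 6 2D libraries, 8 in the 5 libraries of day 13 in batch 1 and 2 in those of day 7. The ratio of 2D cells to day 13 was 5.26, with a counting interval of 2.41 to 13.1. The 2D libraries 1 to 3 held 5.82 to 7.52 CPM and libraries 4 to 6 held 1.37 to 4.12 CPM. Outside the 2D cells no library held more than 4 counts, and KPC held 1 count in 3 libraries.

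**Figure D2:**
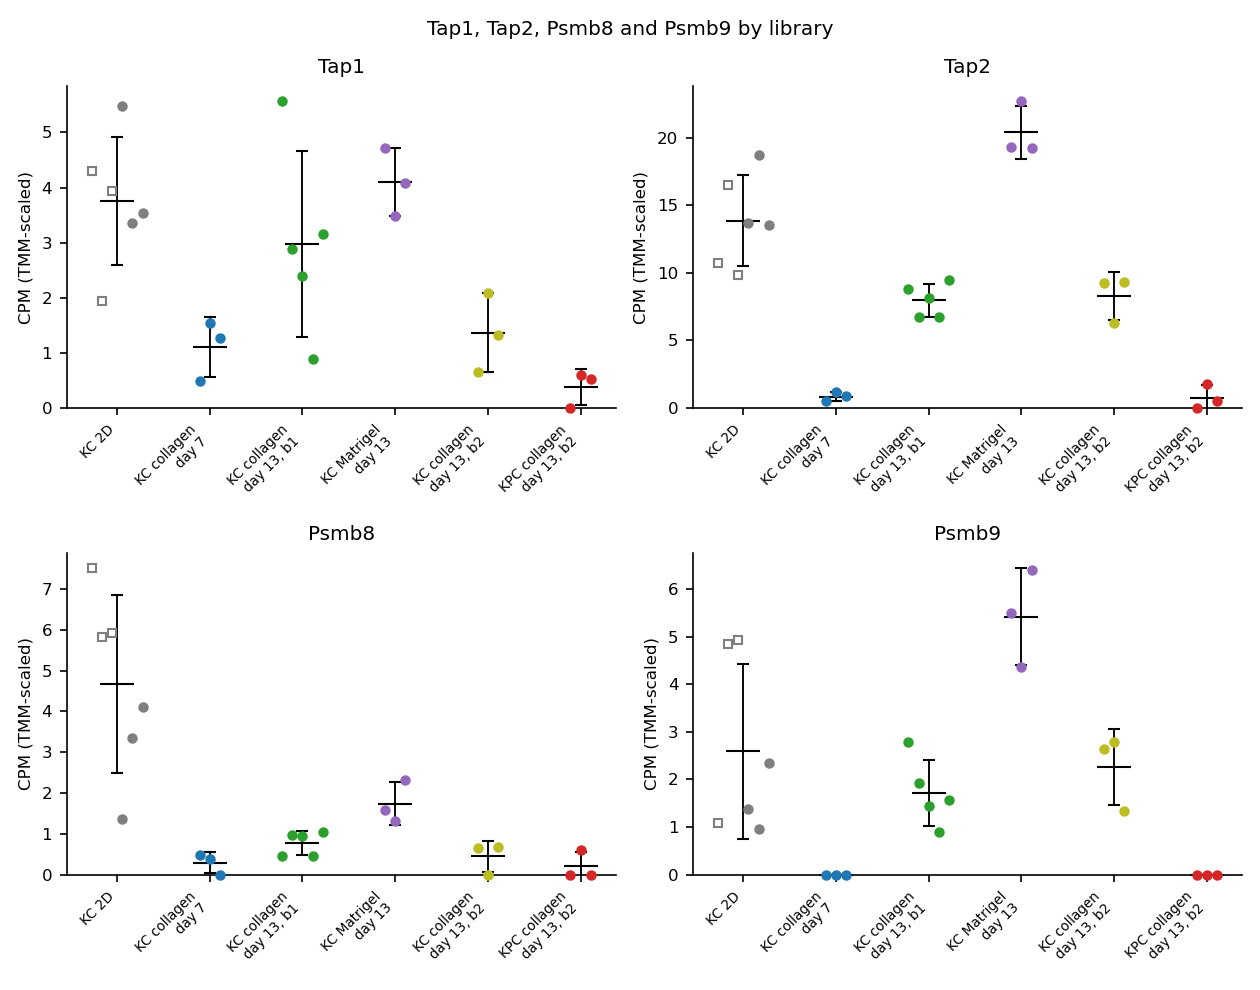
Level of Tap1, Tap2, Psmb8 and Psmb9 by library, in TMM-scaled CPM on linear axes from 0, with groups, symbols and mean ± SD as for the heavy chains. Day 7 and KPC libraries lie lowest for Tap2 (at most 1.80 CPM) and at 0 for Psmb9, Matrigel has the highest mean for Tap2 and Psmb9, and 2D cells have the highest mean for Psmb8.

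Psmb10, the third immunoproteasome subunit, is encoded outside the H2 region and took another course. It was highest in KPC, with 53.0, 58.7 and 49.6 CPM, against 37.1, 30.7 and 41.3 CPM in KC of batch 2. It was lowest by median at day 7, with 34.8, 26.7 and 30.3 CPM. All other groups lay between 26.8 and 50.6 CPM and overlapped. KPC was thus the group with the highest Psmb10 level and the lowest H2-D1 level.

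An immunoproteasome subunit replaces its constitutive counterpart, Psmb5 for Psmb8, Psmb6 for Psmb9 and Psmb7 for Psmb10. Psmb9 made up 1.82% ± 0.186 (SD, n = 3) of the Psmb9 and Psmb6 counts in Matrigel and 0.586% ± 0.246 (n = 5) in collagen at day 13 of batch 1. It was 0 of 3009 counts at day 7, which allows a share of up to 0.0997%, and 0 of 1611 counts in KPC, which allows up to 0.186%. Psmb8 made up 2.84% ± 1.06 (n = 6) of the Psmb8 and Psmb5 counts in 2D cells and 0.698% ± 0.271 (n = 5) at day 13 of batch 1. Psmb10 made up 10.4 to 14.5% of the Psmb10 and Psmb7 counts at day 7 (n = 3) and 22.2 to 34.1% at day 13 of batch 1 (n = 5), with no overlap. The mean of Psmb7 was 227 CPM at day 7 and 107 CPM at day 13, and that of Psmb10 was 30.6 and 40.3 CPM with overlapping ranges. The share thus follows Psmb7 as well as Psmb10. Genes differ in capture, so that these shares compare libraries and are not shares of protein.

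**Figure D3:**
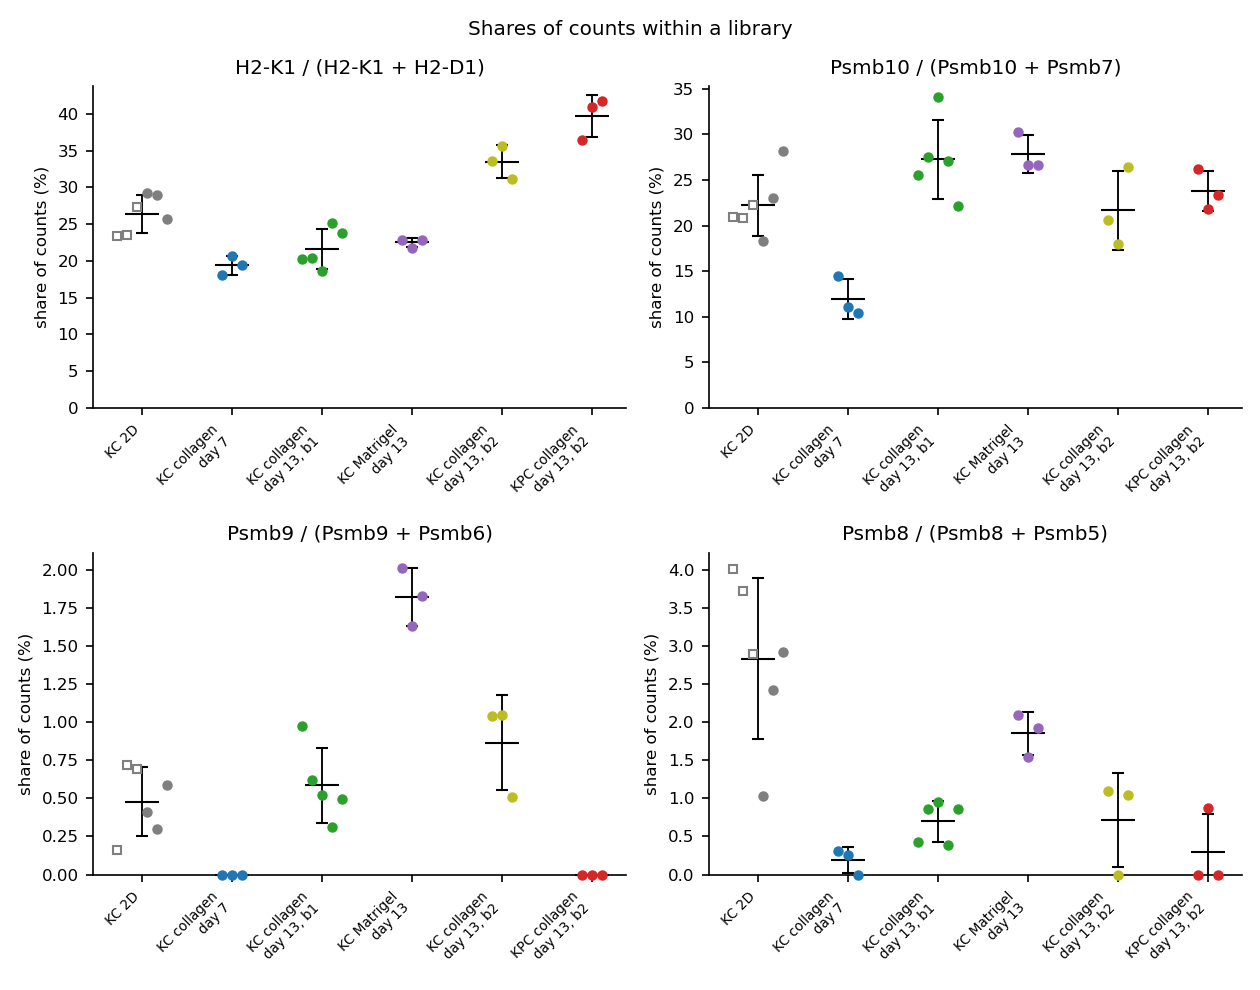
Share of counts within each library, in percent on linear axes from 0, for H2-K1 among both heavy chains and for each immunoproteasome subunit among itself and its constitutive counterpart. Points are libraries, open squares are 2D libraries 1 to 3, and bars are the mean ± SD. The H2-K1 share is at least 31.2% in all libraries of batch 2, and the Psmb10 share at day 7 lies below all other groups.

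Nlrc5, the transactivator of class I genes, was found as 2 counts in 23 libraries, 1 each in libraries 3 and 5 of day 13 in batch 1. No level can be set between groups from 2 counts. A transcript of low abundance can be missed at 1221451 to 2471058 counts per library, so that this is a limit of detection and not an absence.

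Day 7 was compared with day 13 in collagen to follow the organoids over time. All 6 genes in the fit were lower at day 7. The fitted log2 fold change was −1.14 ± 0.096 (SE) for H2-D1, −1.35 ± 0.146 for H2-K1 and −0.90 ± 0.120 for B2m. It was −1.58 ± 0.160 for Tapbp, −3.11 ± 0.406 for Tap2 and −0.41 ± 0.165 for Psmb10. The ranges of the groups did not overlap for H2-D1, H2-K1, B2m, Tapbp and Tap2, while those of Psmb10 did. The share of all genes tested without overlap is not given here, so that nothing is read from the number of members without it. At an adjusted p under 0.1, 0 of the 6 were called higher and 6 lower, beside 28.1% called higher and 27.1% called lower of the 11144 genes tested. The 6 were selected on these levels and reach that count partly by the choice, so that nothing is read from it. The median log2 fold change was −1.24 over the 6 genes and 0.01 over all genes tested. The call of Psmb10 was lost without day 7 library 2 or 3 or day 13 library 3, with log2 fold changes of −0.32, −0.40 and −0.33. In bulk samples fewer cells of a type and less RNA per cell cannot be told apart.

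The genes around class I are not members and were taken from lists written for this work. These lists were chosen with earlier results of these data known. Counts and p-values of the list genes are therefore no independent check, in this or any other comparison. Of 93 such genes tested in the same edgeR fit, 16 were higher and 38 lower at day 7 than at day 13, and their median was −0.23. In this and the next paragraph, rose and fell describe day 7 relative to day 13, against the order of time. Among the class I-like heavy chains 6 of 7 fell. H2-T23, which encodes the Qa-1 ligand of an inhibitory NK cell receptor, was at 26.6 ± 3.83 CPM (SD, n = 3) at day 7. At day 13 it was at 91.8 ± 10.5 CPM (n = 5), a log2 fold change of −1.79 ± 0.142 (edgeR adjusted p = 1.84e-10). Fcgrt, the neonatal Fc receptor, was at 8.47 CPM at day 7 and 24.3 CPM at day 13 (edgeR adjusted p = 6.6e-06). H2-M3 was at 5.65 and 13.9 CPM (edgeR adjusted p = 0.00149). Of 10 interferon receptor and signalling genes 5 fell and none rose, led by the interferon gamma receptor chains Ifngr2 (−1.35 ± 0.102, edgeR adjusted p = 7.3e-11) and Ifngr1 (−0.99 ± 0.127, adjusted p = 4.68e-07). Of 16 interferon-stimulated genes 7 fell and none rose, among them Ifi27 at 20.9 against 64.4 CPM (edgeR adjusted p = 1e-06).

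Peptide supply did not move in 1 direction, and of its 15 genes 8 rose and 3 fell. The constitutive subunits were higher at day 7, Psmb7 by 1.09 ± 0.127 (edgeR adjusted p = 1.32e-07), Psmb6 by 0.57 ± 0.196 (adjusted p = 0.0185) and Psmb5 by 0.52 ± 0.137 (adjusted p = 0.00277) in log2 fold change. The subunits of the PA28 activator, Psme1 (−0.55 ± 0.115, edgeR adjusted p = 0.000328) and Psme2 (−0.44 ± 0.164, adjusted p = 0.0293), were lower. In the endoplasmic reticulum 1 of 9 loading genes fell, Bcap31, and Calr (0.11 ± 0.141, edgeR adjusted p = 0.566) and Erap1 (−0.20 ± 0.201, adjusted p = 0.438) did not pass the test. Of 19 regulators 5 rose and 8 fell. Those that fell included Rfxank of the RFX complex at the X box (−1.71 ± 0.205, edgeR adjusted p = 1.8e-07), Irf9 (−1.58 ± 0.297, adjusted p = 8.88e-05) and Irf1 (−1.08 ± 0.271, adjusted p = 0.00178). Ezh2, the methyltransferase of PRC2, was higher at day 7 by 1.17 ± 0.136 (edgeR adjusted p = 1.09e-07). Nbr1, an autophagy receptor that takes class I to lysosomes in pancreatic cancer cells, was lower at day 7 by 0.76 (edgeR adjusted p = 0.000525). Of the ligands of T and NK cells 3 of 8 rose and 3 fell, with the NKG2D ligands Raet1e (1.83 ± 0.270, edgeR adjusted p = 3.87e-06) and Ulbp1 (1.69 ± 0.230, adjusted p = 1.19e-06) higher at day 7. The summed haematopoietic markers, nearly all Cd68, were at 3.41 to 5.88 CPM at day 7 and 12.5 to 22.1 CPM at day 13 and their part in these results was not tested, while Ptprc and Lyz2 had at most 3 counts in any library. Of 7 epithelial markers tested 2 rose and 3 fell. Epcam was at 5.87 CPM at day 7 and 56.2 CPM at day 13 (edgeR adjusted p = 3.85e-10), while Krt8 was at 2984 and 2209 CPM. The acinar gene Cela1 was at 3.17 and 9.42 CPM (edgeR adjusted p = 0.00167). The part of these markers was likewise not tested.

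**Figure D4:**
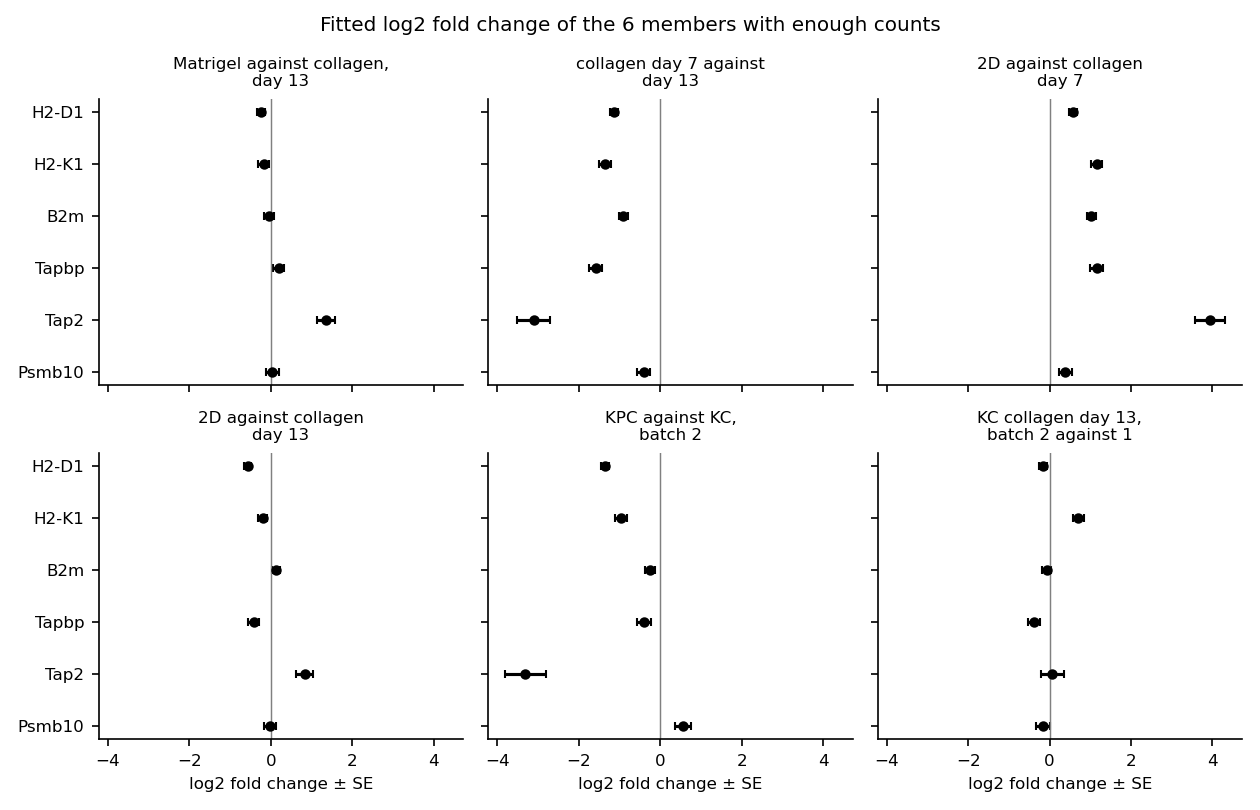
Fitted log2 fold change ± SE of the 6 members in the edgeR fit, for each of the 6 comparisons, first group against second. All 6 lie below 0 at day 7 against day 13 and above 0 in 2D cells against day 7, and Tap2 shows the widest span, from −3.31 to 3.94.

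KPC was compared with KC in batch 2, where both lines were grown in collagen to day 13. H2-D1 was at 321 ± 3.42 CPM (SD, n = 3) in KPC and 821 ± 48.2 CPM (n = 3) in KC, a log2 fold change of −1.35 ± 0.106 (SE). H2-K1 differed by −0.96 ± 0.155 and Tap2 by −3.31 ± 0.504. Tap2 in KPC rested on 4 counts, the ratio of KC to KPC was 10.7 with a counting interval of 3.84 to 41.2, and without KPC library 2, which held 3 of these counts, the fitted value was −4.56. B2m (−0.25 ± 0.131) and Tapbp (−0.39 ± 0.171) were closer to 0, although the Tapbp ranges did not overlap. Psmb10 went the other way, by 0.56 ± 0.188. Of the 6 genes, 1 was called higher and 3 lower, beside 9.58% and 10.4% of all genes tested, and nothing is read from these counts, since the genes were selected on their levels. The median was −0.68 over the 6 and 0.01 over all genes. Psmb10 was not called without KC library 2 (0.44) or without KPC library 2 (0.49). Tapbp, by contrast, was not called in the fit of all 6 groups but was called in the fit of these groups alone (−0.39) and with DESeq2 (−0.42). It was also called against all 8 KC libraries of day 13 (−0.65). Of these 8, 5 were of batch 1 and no KPC library was, so that line and batch are mixed there. Nothing is read from these calls, since Tapbp was selected on its levels.

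Of the 93 pathway genes 8 rose and 15 fell in KPC. Scaling by library total alone shifted the median of all genes by 0.13 on the log2 scale and gave 7 of each. Without KPC library 2 the number called was 13 and without KC library 3 it was 14, against 23. Of the class I-like heavy chains 2 of 7 fell, H2-T23 from 31.8 to 17.1 CPM (−0.89 ± 0.188, edgeR adjusted p = 0.00159) and H2-M3 from 10.5 to 4.40 CPM (−1.28 ± 0.426, adjusted p = 0.043). Ifngr2 (−0.52 ± 0.109, edgeR adjusted p = 0.0015), Socs3 (−0.57 ± 0.116, adjusted p = 0.0011) and Jak1 (−0.44 ± 0.162, adjusted p = 0.0737) fell among 10 interferon signalling genes. Ifi27 led the 3 of 16 interferon-stimulated genes that fell, at 25.8 against 67.3 CPM (edgeR adjusted p = 0.000227), and Xaf1 was the gene of that list that rose. Irf1 (0.20 ± 0.267, edgeR adjusted p = 0.703) did not pass the test. None of the 19 regulators fell, and Ezh2 (0.66 ± 0.151, edgeR adjusted p = 0.00323) and Relb (0.54 ± 0.188, adjusted p = 0.0533) rose. Fas, a death receptor, fell from 12.1 to 1.93 CPM (edgeR adjusted p = 3.19e-05). Susd6, part of a complex that sends class I to lysosomes, fell by 0.70 (edgeR adjusted p = 0.00814). Of 15 peptide supply genes 4 rose and 1 fell, and Psme1 (−0.10 ± 0.125, edgeR adjusted p = 0.682) and Psme2 (0.02 ± 0.193, adjusted p = 0.962) did not pass the test. The haematopoietic sum was 5.99 to 12.1 CPM in KPC and 18.7 to 21.2 CPM in KC. Of 7 epithelial markers tested 2 rose and 1 fell, with Cldn7 at 196 and 7.88 CPM (edgeR adjusted p = 3.62e-11). Their part was not tested.

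**Figure D5:**
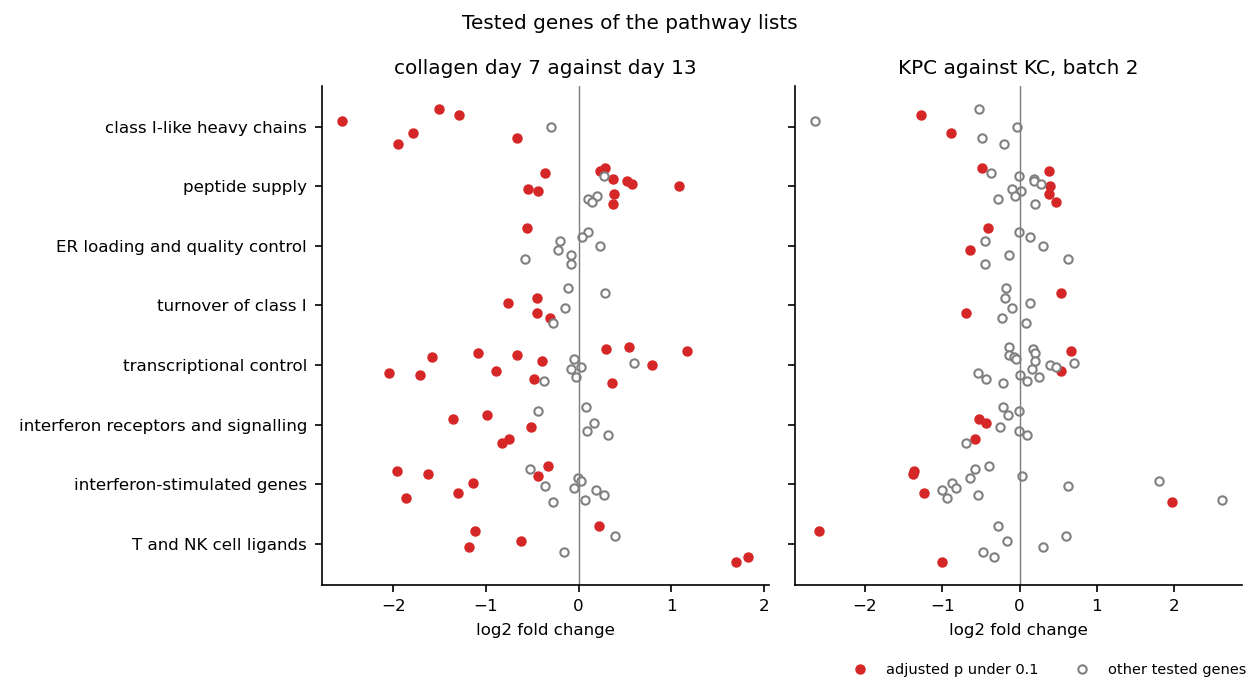
Log2 fold change of each tested gene of the pathway lists that is not a member, at day 7 against day 13 (left) and in KPC against KC of batch 2 (right). Points are genes, filled red at an edgeR adjusted p under 0.1. At day 7 the called class I-like heavy chains and interferon genes all lie below 0, whereas peptide supply genes are called on both sides.

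2D cells were compared with organoids of day 7 and of day 13. All 6 genes in the fit were higher in 2D cells than at day 7, by 0.57 ± 0.092 (SE) for H2-D1, 1.15 ± 0.143 for H2-K1, 1.02 ± 0.118 for B2m, 1.16 ± 0.156 for Tapbp, 3.94 ± 0.374 for Tap2 and 0.39 ± 0.165 for Psmb10 on the log2 scale. That made 6 called higher and 0 lower, beside 26.4% and 24.8% of all genes tested, and the same reservation holds, with medians of 1.09 and 0.02. Both comparisons of 2D cells shared libraries with the comparison of day 7 and day 13. Without 2D libraries 1 to 3 the values were 0.62 for H2-D1, 1.31 for H2-K1 and 1.43 for Tapbp, and without libraries 4 to 6 they were 0.55, 0.99 and 0.81, when Psmb10 was no longer called (0.28). Psmb10 was also not called without 2D library 6 (0.29), day 7 library 2 (0.28) or day 7 library 3 (0.36), or by library total alone (0.24). 2D cells were lysed directly and organoids were first digested with collagenase, which cannot be told apart from the culture form.

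Against day 13, H2-D1 (−0.57 ± 0.077) and Tapbp (−0.42 ± 0.124) were lower in 2D cells and Tap2 was higher (0.83 ± 0.211). H2-K1 (−0.20 ± 0.114) and Psmb10 (−0.02 ± 0.139) were nearer to 0, and B2m was at 0.13 ± 0.096, but at −0.12 by library total alone and at −0.04 without libraries 1 to 3. Of the 6 genes 1 was called higher and 2 lower, beside 26.3% and 23.3% of all, with medians of −0.11 and 0.01. Without libraries 4 to 6 this became 2 higher and 3 lower, with B2m at 0.27, H2-K1 at −0.34 and Tapbp at −0.75. Without libraries 1 to 3 Tapbp was at −0.20 and not called. H2-D1 was at −0.57 and −0.58 without either set. The TMM factors of libraries 1 to 3 were 0.738 to 0.771, against 1.04 to 1.06 in libraries 4 to 6.

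Among the pathway genes, 13 of 16 interferon-stimulated genes rose in 2D cells against day 7 and 8 rose against day 13, with none lower. These counts turned on libraries 1 to 3, without which 7 rose against day 7, and 2 rose and 1 fell against day 13. Without libraries 4 to 6, 15 and 9 rose and none fell. Bst2 was at 96.9 CPM in 2D cells, 43.0 at day 7 and 54.1 at day 13 (edgeR adjusted p = 3.87e-06 and 3.16e-05). Psme1 and Psme2 were higher in 2D cells than in both, by 1.07 and 0.91 against day 7 (edgeR adjusted p = 6.68e-08 and 9e-05) and by 0.53 and 0.47 against day 13 (adjusted p = 8.14e-05 and 0.00709) in log2 fold change. Without libraries 1 to 3 Psme2 was at 0.08 against day 13 and did not pass the test (edgeR adjusted p = 0.57), and Bst2 was at 0.46 (adjusted p = 0.00139), against 1.13 without libraries 4 to 6. H2-T23 was higher than at day 7 (0.90 ± 0.143, edgeR adjusted p = 2.06e-05) and lower than at day 13 (−0.89 ± 0.11, adjusted p = 7.15e-07). Icam1, the adhesion ligand of LFA-1 on T cells, was higher than in both, by 1.08 (edgeR adjusted p = 0.000105) and 1.48 (adjusted p = 2.94e-07). H2-T23, Icam1 and Psme1 kept their calls and directions without either set. In all 93 genes, 39 rose and 18 fell against day 7, and 23 rose and 23 fell against day 13. Without libraries 1 to 3 these were 36 and 14, and 15 and 19, and without libraries 4 to 6 they were 40 and 21, and 26 and 25. By library total alone the counts against day 13 became 12 and 33, with the median of all genes shifted by −0.20. Markers of epithelial and of other cells also moved in 2D cells. Of 7 epithelial markers tested, 2 rose and 4 fell against day 7, and 1 rose and 4 fell against day 13. Summed, the 8 epithelial markers were at 7020 to 9990 CPM in 2D cells, 11200 to 12600 at day 7 and 9520 to 11400 at day 13. Against day 7, Dcn (0.83, edgeR adjusted p = 0.045), Egfl7 (1.21, adjusted p = 0.00219), the acinar gene Cela1 (1.74, adjusted p = 0.000872) and Epcam (1.73, adjusted p = 5.44e-05) were higher, and against day 13 Egfl7 (1.92, adjusted p = 8.27e-06) and Col1a2 (0.70, adjusted p = 0.04) were higher and Epcam lower (−1.53, adjusted p = 6.31e-07). Summed over the lists, fibroblast markers were at 41.8 to 133 CPM in 2D cells, 40.9 to 60.8 at day 7 and 34.8 to 70.3 at day 13, endothelial markers at 8.64 to 29.1, 6.39 to 10.8 and 3.15 to 6.95, acinar markers at 4.57 to 20.4, 2.98 to 4.41 and 7.36 to 11.5, and haematopoietic markers at 4.57 to 18.3, 3.41 to 5.88 and 12.5 to 22.1. Their part in the results was not tested.

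Matrigel was compared with collagen at day 13 to separate the matrix from time. The heavy chains and B2m differed little, with −0.24 ± 0.093 (SE) for H2-D1, −0.17 ± 0.138 for H2-K1 and −0.04 ± 0.116 for B2m, the last at 0.02 by library total alone. Tapbp (0.19 ± 0.145) and Psmb10 (0.03 ± 0.160) were also near 0. Tap2 was at 20.4 ± 1.97 CPM (SD, n = 3) in Matrigel and 7.97 ± 1.23 CPM (n = 5) in collagen, which is 1.36 ± 0.224 as a log2 fold change. It was the single gene called of the 6, higher, with 0 lower, beside 6.62% and 6.29% of all genes tested, and nothing is read from this count. H2-D1 ranges did not overlap (727 to 814 against 880.4 to 978 CPM), and DESeq2 called H2-D1 at −0.23, from which likewise nothing is read.

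Of the 93 pathway genes 7 rose and 7 fell in Matrigel, and by library total alone 9 rose and 2 fell. The number called was 7 without Matrigel library 1 and 8 without Matrigel library 2. Icam1 rose by 0.85 ± 0.202 (edgeR adjusted p = 0.007) and Nectin2, a ligand of the T and NK cell receptors DNAM-1 and TIGIT, by 0.44 ± 0.118 (adjusted p = 0.0164). Socs3 fell by 0.73 (edgeR adjusted p = 3.71e-05) and Ifngr2 by 0.44 (adjusted p = 0.00382) on the log2 scale. H2-T23 (−0.03 ± 0.124, edgeR adjusted p = 0.933), Irf1 (0.49 ± 0.230, adjusted p = 0.209) and Psme1 (0.21 ± 0.11, adjusted p = 0.265) did not pass the test. The haematopoietic sum, mostly Cd68, was 30.7 to 37.1 CPM in Matrigel and 12.5 to 22.1 CPM in collagen. Epcam was at 165 and 56.2 CPM (edgeR adjusted p = 8.64e-07), and Egfl7 at 9.43 and 4.62 CPM (adjusted p = 0.0848). The part of these markers was not tested.

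The KC line at day 13 in collagen was also set against itself across batches. Whatever differed between the batches, in culture or in the making of libraries, cannot be told apart here. H2-K1 was higher in batch 2 by 0.70 ± 0.134 (SE) without overlap, while H2-D1 was at −0.16 ± 0.093 without overlap, B2m at −0.07 ± 0.117 and Tapbp at −0.38 ± 0.151. Psmb10 was at −0.15 ± 0.171, and Tap2 was at 0.07 ± 0.281 and at −0.07 by library total alone. Of the 6 genes 1 was called higher and 1 lower, beside 19.3% and 18.1% of all, with medians of −0.11 and −0.05. The lower one, Tapbp, was lost without batch 1 library 2 (−0.33) or 3 (−0.33) and without batch 2 library 1 (−0.31) or 2 (−0.33). H2-K1 thus differed by 0.70 between batches of 1 line and by −0.96 between the lines within batch 2.

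Among the pathway genes 23 rose and 22 fell in batch 2, and by library total alone 15 rose and 27 fell, with the median of all genes shifted by −0.18. Without batch 2 library 2 the number called was 28 against 45. H2-T23 fell from 91.8 to 31.8 CPM (−1.53 ± 0.146, edgeR adjusted p = 3.25e-08), so that it moved against H2-K1. Of 16 interferon-stimulated genes 6 fell and none rose, Ifit3 from 13.0 to 0.677 CPM (edgeR adjusted p = 1.79e-05) and Ifit1 from 15.4 to 2.48 CPM (adjusted p = 0.00121). Psme2 fell by 0.84 (edgeR adjusted p = 0.000588) and Psme1 rose by 0.48 (adjusted p = 0.00165). Susd6 rose by 1.06 ± 0.158 (edgeR adjusted p = 1.53e-05).

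Of the professional antigen presentation genes, Cd74 had 6 counts and the checkpoint ligand Cd274 24 counts in all 23 libraries, so that neither was tested. Ciita was not analysed here. Ifi30, a lysosomal thiol reductase, was the single gene of the class II list tested.

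The likeness of other genes to the 6 members was measured as Pearson's r of log2 CPM with the mean z score of the 6, over 23 libraries that share groups, batches and depth. The 10 most alike were Tmprss2 (r = 0.948), Zfp36l1 (0.947), Grb7 (0.939), Sult1c2 (0.935), Ehf (0.931), Atp1b1 (0.929), Prom1 (0.929), Tspan13 (0.928), Sgpp2 (0.926) and Slc16a10 (0.926). Tmprss2, a transmembrane serine protease of epithelia, was at 36.5 CPM at day 7, 76.4 in KPC and 117 to 218 in the other groups. Ehf, an epithelial ETS factor, was at 6.68 CPM at day 7, 20.8 in KPC and 34.8 to 73.1 elsewhere. After the group means had been removed r was 0.703 for Tmprss2, 0.496 for Ehf and 0.14 for Zfp36l1. Among the members themselves r lay between 0.508 and 0.767 for the pairs of H2-D1, H2-K1, B2m, Tap2 and Tapbp, and between −0.208 and 0.319 for Psmb10 with each of them. Within groups the former pairs lay between −0.395 and 0.326, so that r for these pairs came from differences between groups. The members were chosen by their levels over these same groups, so that nothing is read from that r.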

How the data were processed

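The samples were 23 libraries of mouse tumor cells, and the deposited file holds whole-number UMI counts of 27207 genes, which the authors made from 3′-end libraries by the Drop-seq tools (GRCm38, annotation GENCODE M25) and left unnormalized. The lines were from mice of a mixed background, and reads of an H2 allele unlike the reference may be lost in alignment, which was not tested. Counts were analysed in R 4.3.3 with edgeR 4.0.16 and its quasi-likelihood test (TMM, filterByExpr, which left 11144 genes, 6 groups in 1 fit). Genes with a Benjamini-Hochberg adjusted p under 0.1 over all genes were called. The standard error is the log2 fold change over the root of F. CPM are counts over the TMM-scaled size, and log2 CPM used a prior count of 2. The script was tested on simulated data.

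The 10 members and the pathway lists were chosen with earlier results of these data known. Besides the members, the rule named 14 genes wherever tested (Ciita was not analysed here) and, per comparison and list, up to 4 called genes with the largest fold change and at least 10 CPM. Some genes and alleles that the rule or the design names are not reported here. Xaf1 was named after its values were seen. In the lists Nrdc was read under its older symbol, Nrd1. A count of 0 allows up to 3 counts, pooled over a group, and counting intervals are exact at 95%. Alternatives were DESeq2 1.42.0 (Wald test, and its size factors), library total alone, other filters, a threshold of 0.05, the compared groups alone, a replicate block, all 8 KC libraries of day 13, and each library left out. Leaving out each set of 2D libraries was added after the data were seen. Genome positions are from GENCODE M21 and promoters from RefSeq (GRCm38.p6).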

Additional observations from a re-analysis of the deposited data

How the results depend on the processing

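No direction of a member that was called turned under any alternative run, and 193 recomputed counts of called genes stayed within 1.5 times while 19 did not, as follows. Members called, 2D cells against day 13, numbered 5 without 2D libraries 4 to 6 (3 with all libraries). Between batches they numbered 1 without the filter and 1 at an adjusted p under 0.05 (2 otherwise). In Matrigel they numbered 2 with DESeq2, 2 without the filter and 0 with at least 10 counts in every library, where Tap2 was not tested (1 otherwise). Pathway genes called in KPC numbered 14 by library total alone and 13 at an adjusted p under 0.05 (23 otherwise). The replicate numbers do not pair the libraries (correlations of same-numbered deviations from −0.119 to 0.188). With the replicate block in the fit of both groups alone, pathway genes called in Matrigel numbered 27 (14 otherwise), and no other count of calls moved by more than 1.5 times. When each library was left out in turn, members called ranged from 1 to 2 between batches and from 1 to 2 in Matrigel, where 2 were called without Matrigel library 2. Pathway genes called ranged from 28 to 42 between batches, from 13 to 19 in KPC and from 7 to 14 in Matrigel. Tap1, Psmb8, Psmb9 and Nlrc5 had too few counts for the fit, and their differences are limited by counting error. The causes of these shifts were not tested.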
